A study of Mus musculus with 12 samples.

Results

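The proteins of the mitochondrial ribosome were examined through the RNA levels of their genes in mouse bone marrow-derived macrophages that had spent 1 h at 1% oxygen. The members are all genes of the deposited table whose symbol begins with Mrps or Mrpl followed by a digit, 81 of its 13232 genes. Of these, 30 are named for the small subunit (Mrps) and 51 for the large subunit (Mrpl). They comprise 78 protein-coding genes and 3 processed pseudogenes, *Mrpl23-ps1*, *Mrpl48-ps* and *Mrps36-ps2*, which are intronless copies of a spliced mRNA. In the GENCODE M21 annotation the only other genes of that name pattern are the pseudogenes *Mrps36-ps1* and *Mrps36-ps3*, which the table does not list. All 81 members passed the filter on low values, a mean of at least 1 over the libraries.

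Macrophages were grown with 20 ng/ml of the growth factor M-CSF from the whole marrow of wild-type C57B6/J mice kept either on the normal diet (ND) or on the diet high in fat (HFD). The cells were cultured in 10% serum under 5% CO2, changed to serum-free medium on day 4 and placed at 1% oxygen on day 7. Both groups compared here therefore share genotype, M-CSF, the serum-free change and hypoxia, and differ by the diet of the donor mice. The comparison asks how that diet bears on the RNA of cultured macrophages early in low oxygen. The series has 12 samples, and the 3 ND and 3 HFD hypoxia libraries are used, while those from normal oxygen were not analysed here. Age and length of feeding were not in the labels used here, and nothing there says whether replicates came from separate mice, so p-values measure only the spread between these samples.

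The mitochondrial ribosome makes the few proteins encoded by mitochondrial DNA, all of them core subunits of the respiratory chain and ATP synthase. Its small subunit, built on the 12S rRNA, holds the mRNA and decodes it, and its large subunit, built on the 16S rRNA, joins amino acids into protein and passes the chain out through an exit tunnel towards the inner membrane. Both rRNAs are transcribed from mitochondrial DNA (*mt-Rnr1* and *mt-Rnr2*), whereas every protein of the ribosome is encoded in the nucleus, translated in the cytosol and imported. A core of these proteins descends from bacterial ribosomal proteins, and most of the rest are found only in mitochondria. Gene names do not always give the place in the structure. *Mrps18a* (protein mL66) and *Mrps30* (mL65) lie in the large subunit, *Mrps18b* (mS40) and *Mrps18c* (bS18m) lie in the small subunit, and the product of *Mrps36* is counted with the 2-oxoglutarate dehydrogenase complex of the citric acid cycle. By structure, 26 members thus belonged to the small and 51 to the large subunit, and by the names of their proteins 46 were counted in the bacterial core and 31 as specific to mitochondria. *Mrps18a* and *Mrps18b*, relatives of bacterial S18, are among the 31 because their proteins carry mitochondrial names.

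Values are normalized read counts, the gene counts after the authors' scaling of each library. Estimated depths ran from 19046366 to 24491464 reads per library, and the 81 members together took 0.122% to 0.132% of each library's total. The labelled cell type was checked with markers. All 8 macrophage markers were listed, with sums of 361574 to 415120 in ND and 359787 to 419514 in HFD, mostly from 1 marker with a mean of 243392. Of the 8, 3 were higher and 5 lower in HFD, none at an unadjusted limma p under 0.05. *Adgre1* (log2 fold change 0.16, limma adjusted p 0.520) was higher in HFD without overlap, as were 7.44% of all genes, and *Mrc1* was at -0.14 (limma adjusted p 0.565). No B cell or erythroid marker was listed (0 of 5 each), and of the T cell list only *Cd4* was (202 to 356 in ND, 98.1 to 230.0 in HFD) and of the mast cell list only *Kit* (117 to 226 and 72.4 to 104). Both were lower in HFD at an unadjusted limma p under 0.05, with log2 fold changes of -0.70 for *Cd4* and -0.88 for *Kit*, and neither passed the adjusted threshold (0.448 and 0.284). The 4 of 8 listed neutrophil markers summed to 1156 to 1763 in ND and 1149 to 2148 in HFD, without *Ly6g*, *Mpo* and *Elane*, and all 4 had log2 fold changes above 0 (0.11 to 0.38, none at an unadjusted limma p under 0.05). The 3 of 5 listed stromal markers summed to 177 to 549 and 51.8 to 337. All 3 stromal markers were lower in HFD (log2 fold changes -1.45 to -1.04, diets overlapping), 1 of them, *Col1a1*, at an unadjusted limma p of 0.0423 (-1.33, adjusted p 0.448). All 8 proliferation markers were listed, with sums of 17277 to 21358 and 17499 to 23671, 3 higher and 5 lower in HFD, of which *Ccnb1* had an unadjusted limma p of 0.0332 (log2 fold change -0.31, adjusted p 0.423). The part of these cells in the results below was not tested, and in bulk RNA fewer cells of a type and less RNA per cell cannot be told apart. ND replicate 3, the shallowest library, and HFD replicate 1 moved several counts below, which are therefore also given without them.

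The mitochondrial ribosomal protein genes were at nearly the same level on both diets. Of the 81 members, 49 were higher and 32 lower in HFD, with log2 fold changes from -0.34 (*Mrpl48-ps*) to 0.21 (*Mrpl57*). Their median was 0.024, against -0.0034 over all 13232 genes, and their median absolute log2 fold change was 0.063, against 0.092. No member passed an adjusted p of 0.05 (limma with Benjamini-Hochberg adjustment), and neither did any gene of the table (0%). At an unadjusted limma p under 0.05, 0 members were higher and 1 was lower in HFD, where 5.4% of all genes were higher, 5.18% lower and 10.6% either. The members' share was 1.23%.

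The precision of these estimates was close to that of the table as a whole. The median standard error of a member's log2 fold change was 0.10, the same as over all genes. For 79 of the 81 members (97.5%) the whole 95% confidence interval lay within a 1.5-fold difference in either direction, compared with 80.9% of all genes. The exceptions were *Mrpl23* (-0.77 to 0.18) and *Mrpl48-ps* (-0.74 to 0.06). Across all members the interval bounds reached from -0.77 to 0.51, so differences of 1.5-fold or more were outside the interval for nearly every member. Counting error alone at the median member's level was 5.63% of the value, and it covers counting only, since without molecular identifiers a read is not a separate molecule.

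**Figure D1:**
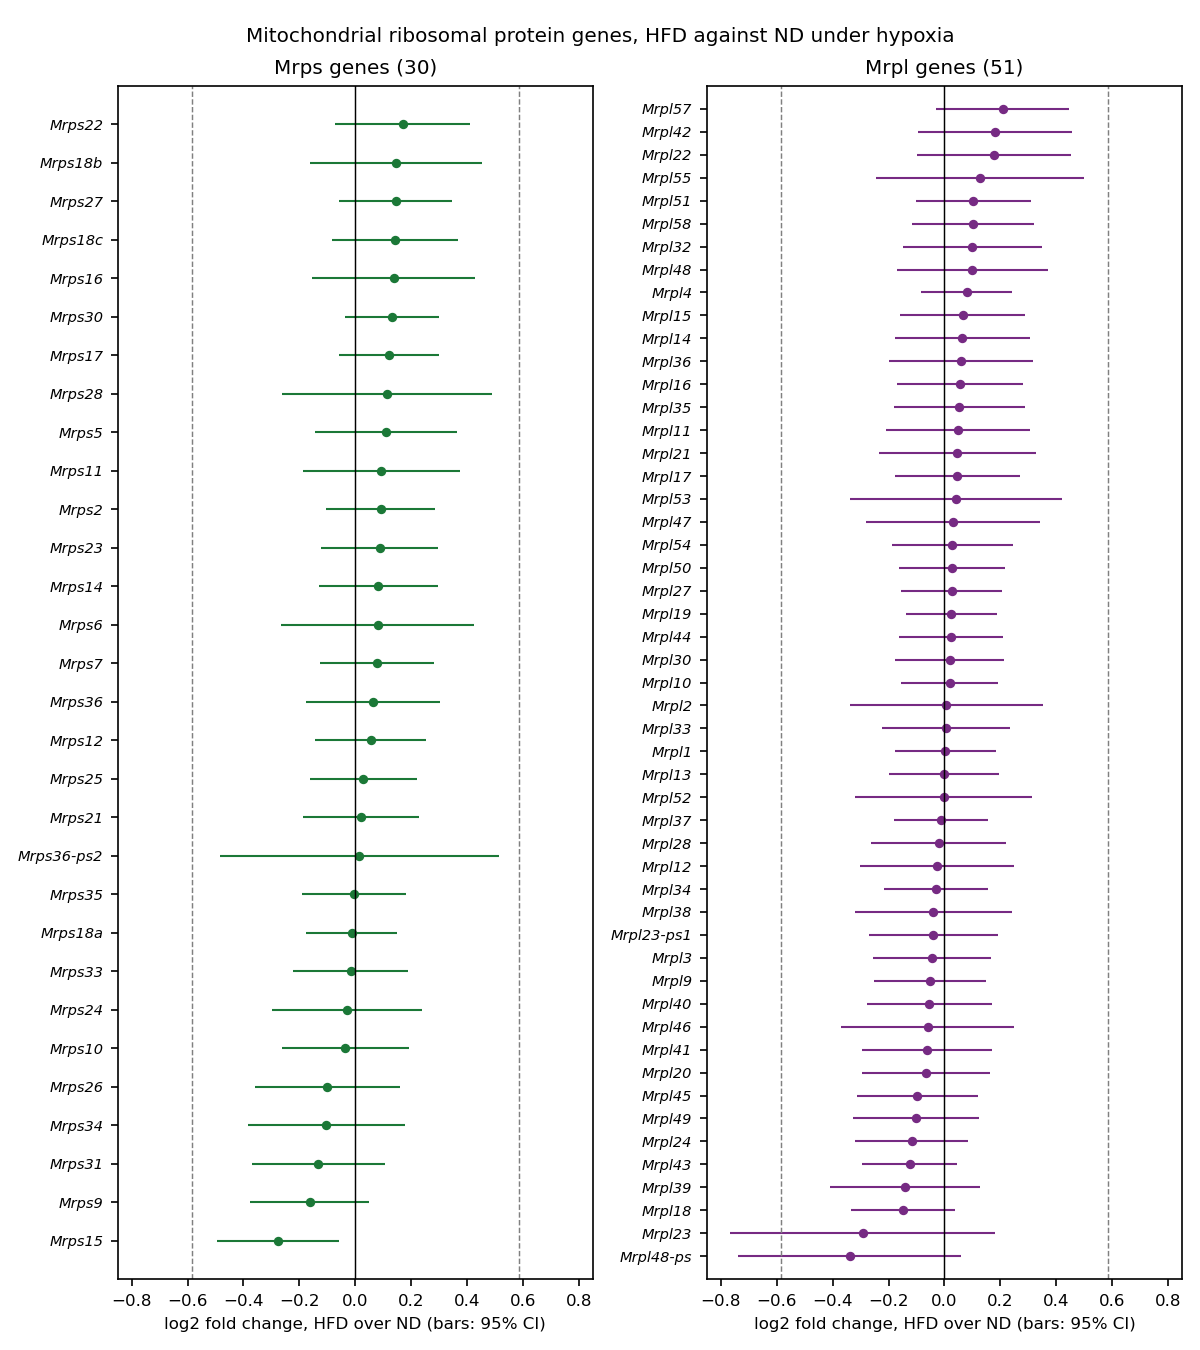
Log2 fold change of each of the 30 Mrps and 51 Mrpl genes, HFD over ND under hypoxia, on the log2(value + 1) scale. Points are limma estimates, bars are 95% confidence intervals (3 libraries per diet), and the dashed lines mark a 1.5-fold difference. The interval of *Mrps15* alone leaves out 0, and those of *Mrpl23* and *Mrpl48-ps* alone cross a dashed line.

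The member with the smallest p was *Mrps15*, which encodes uS15m, the counterpart of a bacterial protein that binds small-subunit rRNA early in assembly. The gene lies on the plus strand at chr4:126046925-126055532 (GRCm38). Its normalized read count was 538, 466 and 427 in ND replicates 1 to 3, against 376, 396 and 405 in HFD replicates 1 to 3. All 3 HFD values lay below all 3 ND values, by a narrow gap at ND replicate 3. The means were 477 ± 56.0 in ND against 392 ± 14.9 in HFD (SD, n = 3 libraries each). The log2 fold change was -0.28 (SE 0.098, 95% interval -0.50 to -0.06), with an unadjusted limma p of 0.0182 and an adjusted p of 0.366. Weighting libraries by their fit (limma array weights) gave -0.35 with an adjusted p of 0.0309, and over all alternatives the adjusted p ran from 0.0309 to 0.940. Without ND replicate 1, the highest library, the log2 fold change was -0.19.

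With array weights 2 members passed an adjusted p of 0.05, *Mrps15* and *Mrpl57*, which is 2.47% of members where 8.56% of all genes passed. At an unadjusted p that fit called 11 members (13.6%) and 27.6% of all genes. *Mrpl57* encodes a small protein of the large subunit that is found only in mitochondria. Its counts were 244, 255 and 292 in ND replicates 1 to 3, against 286, 335 and 294 in HFD replicates 1 to 3. The diets overlapped, since ND replicate 3 lay above the lowest HFD library. The log2 fold change was 0.21 (SE 0.11, limma adjusted p 0.542), and 0.34 with array weights (adjusted p 0.0481). That fit gave the most weight to HFD replicate 2 (3.09) and ND replicate 1 (1.91), which hold the highest and the lowest *Mrpl57* count, and 0.441 to 0.891 to the others. Without HFD replicate 2 the unweighted value was 0.14.

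Among the genes named for the small subunit, 20 of 30 were higher in HFD and the median log2 fold change was 0.071, which ran from 0.022 (without ND replicate 1) to 0.12 (without HFD replicate 1) when 1 library was left out. The diets did not overlap for 3 members higher in HFD, all with an Mrps name, where 7.44% of all genes were higher without overlap. *Mrps30*, whose product sits in the large subunit, counted 453, 462 and 477 in ND replicates 1 to 3, against 523, 520 and 482 in HFD replicates 1 to 3. HFD replicate 3 lay only just above the highest ND library. *Mrps27*, a pentatricopeptide repeat protein of the small subunit, counted 259, 260 and 260 in ND and 268, 290 and 305 in HFD. Its ND libraries were almost equal, so that a modest shift in HFD sufficed to part the diets. *Mrps12*, the counterpart of the bacterial S12 protein of the decoding centre, was 237 ± 1.63 in ND against 246 ± 6.50 in HFD (SD, n = 3), and it was singled out after its values were seen. Their log2 fold changes were 0.13 (SE 0.076) for *Mrps30*, 0.14 (SE 0.091) for *Mrps27* and 0.06 (SE 0.089) for *Mrps12*, with limma adjusted p-values of 0.593, 0.625 and 0.867.

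The other Mrps genes with the smallest p-values above and below 0 had overlapping diets. *Mrps22*, a mitochondrion-specific protein known from inherited disease of mitochondrial translation, counted 175, 177 and 201 in ND replicates 1 to 3, against 197, 205 and 220 in HFD replicates 1 to 3. *Mrps17*, the counterpart of bacterial S17, counted 526, 510 and 580 in ND and 577, 616 and 565 in HFD. For both genes ND replicate 3 was the library that reached into the HFD range. In the other direction, *Mrps9*, the counterpart of a bacterial protein that reaches towards the tRNA in the peptidyl site, was 566 ± 48.0 in ND against 506 ± 44.2 in HFD. *Mrps31*, a mitochondrion-specific protein, was 195 ± 13.8 and 178 ± 7.29, and *Mrps26*, another, was 256 ± 25.8 and 239 ± 24.5 (SD, n = 3 libraries each). These log2 fold changes were 0.17 for *Mrps22*, 0.12 for *Mrps17*, -0.16 for *Mrps9*, -0.13 for *Mrps31* and -0.10 for *Mrps26*, with limma adjusted p-values from 0.599 to 0.810. Leaving out 1 library gave 0.084 to 0.18 for *Mrps17*, -0.23 to -0.090 for *Mrps9*, -0.19 to -0.10 for *Mrps31* and -0.17 to -0.018 for *Mrps26*, the last without HFD replicate 1.

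The genes named for the large subunit were more evenly divided, with 29 of 51 higher in HFD and a median log2 fold change of 0.018. That median changed sign with the libraries: it was -0.026 if ND replicate 1 was left out, and 0.056 if ND replicate 3 was. None was higher in HFD without overlap. Counting both subunits, the diets did not overlap for 2 members lower in HFD, *Mrps15* and *Mrpl43*, where 7.07% of all genes were lower without overlap. *Mrpl43*, specific to mitochondria, counted 562, 570 and 581 in ND replicates 1 to 3, against 524, 557 and 491 in HFD replicates 1 to 3. The difference, -0.12 (SE 0.076, limma adjusted p 0.611), came with a gap of few counts between ND replicate 1 and HFD replicate 2, and was -0.079 without HFD replicate 3. *Mrpl43* shares 33.4% of its exonic bases, on the opposite strand, with *Twnk*, the mitochondrial DNA helicase. Other named members with such overlap include *Mrps25* (69.8%), *Mrps34* (63.4%), *Mrps18b* (30.5%), *Mrpl24* (26.3%), *Mrps27* (24.2%) and *Mrpl47* (24.2%). The library kit keeps strand, but whether the authors' counting used it is not given in the sources used here.

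*Mrpl18*, the counterpart of a bacterial protein that binds 5S rRNA, counted 435, 449 and 477 in ND and 385, 406 and 436 in HFD. Its diets met at ND replicate 1 and HFD replicate 3, and the log2 fold change was -0.15 (SE 0.084, limma adjusted p 0.586). Above 0 the smallest p-values after *Mrpl57* were those of *Mrpl42*, *Mrpl22* and *Mrpl51*. *Mrpl22*, whose bacterial counterpart lines the exit tunnel, counted 145, 163 and 132 in ND and 159, 178 and 161 in HFD, and its log2 fold change of 0.18 became 0.10 without ND replicate 3 and 0.26 without ND replicate 2. *Mrpl42*, a mitochondrion-specific protein, was 330 ± 32.3 in ND against 376 ± 58.9 in HFD, with HFD replicate 3 (444) far above the other libraries. Without that library its log2 fold change went from 0.18 to 0.056. *Mrpl51*, also mitochondrion-specific, was 450 ± 34.2 in ND against 484 ± 36.6 in HFD (SD, n = 3 libraries each). Limma adjusted p-values for these 3 genes were 0.654 to 0.737.

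**Figure D2:**
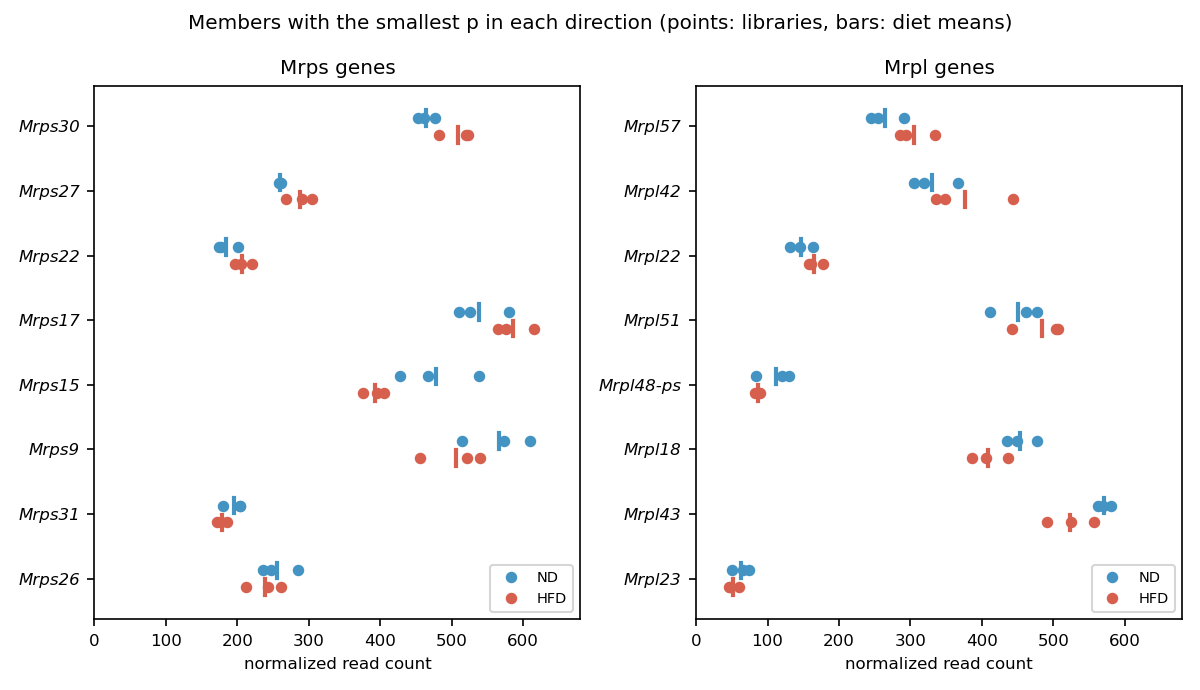
Normalized read counts of the Mrps (left) and Mrpl (right) genes with the smallest p-values in each direction. Points are libraries, bars are diet means, blue is ND and red is HFD. Of the 16 genes shown, *Mrps30*, *Mrps27*, *Mrps15* and *Mrpl43* have diets that do not overlap.

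The 3 Mrps18 genes, related to bacterial S18, and *Mrps36* are described apart because of where their products lie. Their counts were 507 ± 21.2 in ND against 502 ± 5.77 in HFD for *Mrps18a*, 242 ± 18.4 and 271 ± 50.4 for *Mrps18b*, and 234 ± 16.4 and 258 ± 16.7 for *Mrps18c* (SD, n = 3 libraries each). *Mrps18a*, in the large subunit, had a log2 fold change of -0.013, while *Mrps18b* and *Mrps18c*, in the small subunit, had 0.15 and 0.14 (limma adjusted p 0.971, 0.755 and 0.662). The value of *Mrps18b* rested on HFD replicate 3 (324), without which it was 0.0084, and that of *Mrps18c* was 0.090 without HFD replicate 2. *Mrps36* was 261 ± 3.37 in ND against 274 ± 33.4 in HFD, a log2 fold change of 0.063 (limma adjusted p 0.876) that became -0.026 without HFD replicate 3.

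The small and large subunits were then set side by side. By name, the median log2 fold change was 0.053 higher for the small subunit than for the large. By structure the medians were 0.079 and 0.019. In each library the mean of the members' log2 values, each centred on the gene's own mean over the 6 libraries, was taken for each subunit. The small less the large subunit was 0.0042, -0.017 and -0.039 in ND replicates 1 to 3, against -0.0061, 0.022 and 0.037 in HFD replicates 1 to 3. The diets overlapped, because ND replicate 1 lay above HFD replicate 1. The mean of HFD less ND was 0.035, and 0.023 when the subunits were taken by structure. In summed counts, the Mrps genes held between 0.539 and 0.563 of what the Mrpl genes held in every library. Without ND replicate 3 the difference of medians was 0.019, without HFD replicate 3 it was 0.028, and without HFD replicate 1 it was 0.089. Across the 6 fits without 1 library it ran from 0.019 to 0.089.

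By origin, 32 of the 46 members of the bacterial core had a log2 fold change above 0 (median 0.038 on the log2 scale), and 15 of the 31 mitochondrion-specific members (median -0.0032). Within the core, 12 of 16 small-subunit members were higher (median 0.081) and 20 of 30 large-subunit members (median 0.022). For the mitochondrion-specific proteins the counts were 5 of 10 (0.012) and 10 of 21 (-0.0032). The median over all genes was -0.0034, and no test was made of a difference between these classes.

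The same libraries lay above and below 0 in both subunits, without following the diet, though the order of the libraries differed between the subunits. The mean centred log2 value of all 81 members was -0.057, -0.036 and 0.073 in ND replicates 1 to 3, against -0.051, 0.041 and 0.029 in HFD replicates 1 to 3. ND replicate 3 was the highest library and ND replicate 1 the lowest, with HFD replicate 1 next. The small subunit alone gave -0.054, -0.046 and 0.049 in ND and -0.055, 0.055 and 0.052 in HFD. Its highest library was HFD replicate 2, and its lowest, by a small margin, HFD replicate 1. The large subunit gave -0.059, -0.029 and 0.088 in ND and -0.049, 0.033 and 0.015 in HFD. ND replicate 3 held the highest value of 27 of the 81 members (33.3%) and of 16.6% of all genes, and the lowest of 3 members. HFD replicate 1 held the lowest value of 24 members (29.6%) and of 12.6% of all genes, and ND replicate 1 of 22 members (27.2%) and of 16.9% of all genes.

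With fewer libraries the diets can only overlap less often, so counts without 1 library are read against all genes in the same fit. Without ND replicate 3, the diets did not overlap for 17 members higher in HFD (20.99%) and 5 lower (6.17%), where all genes gave 17.7% and 18.2%. Without HFD replicate 1 the counts were 15 (18.5%) and 5 (6.17%), where all genes gave 15.5% and 14.9%. Leaving out any of the other libraries gave 4 to 6 members higher (4.94% to 7.41%) and 2 to 7 lower (2.47% to 8.64%), where all genes gave 9.51% to 12.6% and 9.33% to 12.4%. No member passed an adjusted p of 0.05 in any of these 6 fits, including that without ND replicate 3, in which 233 genes of the table did (1.76%).

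Nuclear-encoded subunits of the respiratory chain, the complexes that the mitochondrial ribosome serves, were compared as a reference, as were the proteins of the cytosolic ribosome. The 81 respiratory chain genes scored -0.067, -0.023 and 0.076 in ND replicates 1 to 3, against -0.048, 0.062 and 0.00012 in HFD replicates 1 to 3. They were highest in ND replicate 3 and lowest in ND replicate 1, as the members were. Of these genes, 50 were higher and 31 lower in HFD, and their median log2 fold change was 0.018. The 78 cytosolic ribosomal protein genes scored 0.017, -0.010 and 0.086 in ND and -0.043, -0.030 and -0.019 in HFD. Every HFD library lay below every ND library for them, which was not so for the mitochondrial ribosome. No test was made of a difference between these lists.

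**Figure D3:**
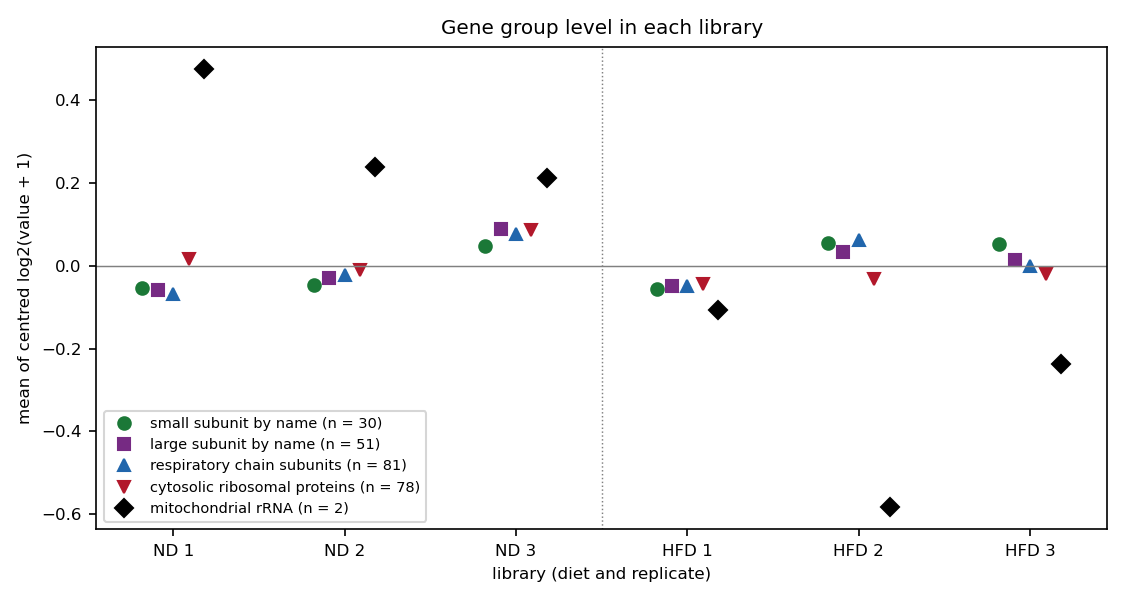
Mean of centred log2(value + 1) over the genes of each group in each library, for the small and large subunit by name, respiratory chain subunits, cytosolic ribosomal proteins and the 2 mitochondrial rRNAs. Symbols are group means in 1 library. Both subunits are highest or nearly so in ND replicate 3 and low in ND replicate 1 and HFD replicate 1, while the mitochondrial rRNAs run from 0.48 in ND replicate 1 to -0.58 in HFD replicate 2.

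The RNA on which the proteins assemble showed another pattern. The 12S rRNA gene *mt-Rnr1* counted 28678, 26517 and 24242 in ND replicates 1 to 3, against 19621, 16423 and 16997 in HFD replicates 1 to 3. The 16S rRNA gene *mt-Rnr2* counted 30430, 23727 and 24948 in ND and 19803, 12241 and 19110 in HFD. For both, all HFD libraries lay below all ND libraries. The log2 fold changes were -0.58 (SE 0.091) for *mt-Rnr1* and -0.65 (SE 0.17) for *mt-Rnr2*, with limma adjusted p-values of 0.113 and 0.278, so neither passed the threshold. Ribosomal RNA was removed when these libraries were made, so the counts are what that step left behind.

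The other genes of mitochondrial translation were counted in the same way. Of the 5 subunits of the mitochondrial ribosome that carry other names, 3 were higher and 2 lower in HFD, among them *Dap3* of the small subunit (383 ± 14.2 in ND against 398 ± 43.6 in HFD). Of 24 assembly factors 23 were listed, 14 higher and 9 lower (median log2 fold change 0.025), with *Ddx28*, an RNA helicase of large-subunit assembly, at 0.12 and *Mrm2*, a methyltransferase of 16S rRNA, at -0.13. Of 16 translation factors and related proteins 15 were listed, 9 higher and 6 lower (median 0.020). *Tufm*, the elongation factor that brings aminoacyl-tRNA to the ribosome, was 248 ± 42.4 in ND against 281 ± 11.3 in HFD (SD, n = 3 libraries each). *Mtif2*, the initiation factor, counted 553, 575 and 589 in ND replicates 1 to 3, against 507, 508 and 545 in HFD replicates 1 to 3. The diets did not overlap for *Mtif2* (log2 fold change -0.14, limma adjusted p 0.555). Of the 15 translation factors, 2 lay wholly lower in HFD, *Mtif2* among them, and 1 wholly higher, where 7.07% and 7.44% of all genes did so. All 17 mitochondrial aminoacyl-tRNA synthetases were listed, 8 higher and 9 lower (median -0.042, range -0.39 to 0.29), without a member whose diets did not overlap. No gene of these lists had an adjusted p or an unadjusted limma p under 0.05.

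Levels were compared between genes per kilobase of transcript, the mean normalized read count over the 6 libraries divided by the length of the principal annotated transcript. The median was 222 per kilobase for the Mrps and 227 for the Mrpl genes. *Mrpl33* (1620 per kilobase) and *Mrps21* (1519), both short proteins with bacterial counterparts, stood far above the rest. *Mrpl54* (599.8), a mitochondrion-specific protein, *Mrpl24* (577), whose bacterial counterpart lies beside the exit tunnel, and *Mrps18a* (570.4) followed. The lowest were *Mrpl47* (47.3), the counterpart of a bacterial protein at the tunnel exit, *Mrps26* (57.8), *Mrpl35* (60.4), of the bacterial core, and *Mrpl48* (64.5), specific to mitochondria. Among Mrps genes *Mrps5* (69.6), the counterpart of a bacterial protein that bears on the accuracy of decoding, and the mitochondrion-specific *Mrps35* (72.6) came next. With the median length of all coding isoforms in place of the principal transcript, *Mrpl33* and *Mrps21* remained the top pair and *Mrpl47*, *Mrps26* and *Mrpl35* the lowest 3, whereas the places between them changed. *Mrps23* (825), *Mrpl4* (790) and *Mrpl30* (777) then ranked 3, 4 and 5, and *Mrps18a*, *Mrpl24* and *Mrpl54* ranked 6, 10 and 11. *Mrpl17* went from rank 77 (68.2) to rank 7 (669.5), and *Mrps17* from rank 66 to rank 8, so ranks depend on the length chosen. At the low end *Mrpl48* went from 64.5 to 319.7, *Mrps5* to 127 and *Mrps35* to 135, so that *Mrps16* (88.0) and *Mrps25* (101) lay below them. Levels per kilobase of the principal transcript thus spanned from 47.3 to 1620 among genes for 1 complex. With median isoform lengths the upper end was 1830, for *Mrps21*, which then lay above *Mrpl33*. Between diets the same genes were close. *Mrpl33* was 775 ± 107 in ND against 774 ± 50.01 in HFD, and *Mrps21* was 734 ± 8.79 and 748 ± 91.5 (SD, n = 3 libraries each).

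For 3 members the reads are shared with a processed copy elsewhere in the genome, and their levels depend on how the authors' counting divided the reads. *Mrpl23*, whose bacterial counterpart sits at the mouth of the exit tunnel, lies at chr7:142532686-142540747 (GRCm38), and *Mrpl23-ps1* lies at chr2:74591330-74591909. Over 540 of its 580 bases the copy is identical to the mRNA, including all 441 coding bases. The first 75 coding bases, the length of a read here, are shown to make this plain, and no base is in capitals because none differs (transcripts of GENCODE M21).
Mrpl23: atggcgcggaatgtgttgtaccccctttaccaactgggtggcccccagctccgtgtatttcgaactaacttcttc
Mrpl23-ps1: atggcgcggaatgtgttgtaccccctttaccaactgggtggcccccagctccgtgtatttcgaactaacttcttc
A read from this stretch could be given to either locus. The deposited level of the copy was 5.03 times that of the gene, and the copy took between 79.2% and 86.9% of the pair's counts in every library. *Mrpl23* itself counted 73.9, 49.7 and 65.8 in ND replicates 1 to 3, against 59.6, 47.6 and 45.8 in HFD replicates 1 to 3, the lowest mean level of all members. The log2 fold change of *Mrpl23* was -0.29 (SE 0.21, limma adjusted p 0.670), and with gene and copy summed it was -0.081 (limma adjusted p 0.807). Unsummed, *Mrpl23* ran from -0.45 without ND replicate 2 to -0.17 when ND replicate 1 was left out.

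The other copies differ from their genes at a few bases. *Mrpl48-ps* (chr4:88599175-88599810, minus strand) is 98.1% identical to the coding sequence of *Mrpl48* (chr7:100545751-100608301, minus strand), with 12 of 636 bases different, and *Mrps36-ps2* (chr7:105690259-105690567, minus strand) is 99.0% identical to *Mrps36* (chr13:100735955-100744659, minus strand), with 3 of 309 different. The read-length stretches with most differences are shown, in capitals where gene and copy differ. They begin at coding base 368 of *Mrpl48* and coding base 18 of *Mrps36*.
Mrpl48: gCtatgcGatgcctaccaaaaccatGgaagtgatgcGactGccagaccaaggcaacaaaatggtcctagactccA
Mrpl48-ps: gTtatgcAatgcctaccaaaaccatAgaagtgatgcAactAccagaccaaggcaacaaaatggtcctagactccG
Mrps36: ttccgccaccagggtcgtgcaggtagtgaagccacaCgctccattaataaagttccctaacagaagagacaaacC
Mrps36-ps2: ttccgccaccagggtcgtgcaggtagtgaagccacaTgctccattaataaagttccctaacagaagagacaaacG
A read from the *Mrpl48* stretch carries 6 bases that tell gene from copy, and one from the *Mrps36* stretch carries 2. Elsewhere a read may carry none. Of the 75-base stretches of *Mrpl48-ps*, 33.3% also occur in another annotated gene, and of those of *Mrps36-ps2*, 53.2% do. *Mrpl48-ps* took 21.3% to 36.6% of its pair's counts and *Mrps36-ps2* 16.5% to 24.6%. *Mrpl48-ps* had the lowest log2 fold change of all members, with counts of 84.6, 131 and 121 in ND replicates 1 to 3, against 87.9, 82.6 and 90.1 in HFD replicates 1 to 3. ND replicates 2 and 3 lay well above the other 4 libraries, and the log2 fold change was -0.34 (SE 0.18, limma adjusted p 0.552), with -0.53 when ND replicate 1 and -0.22 when ND replicate 2 was left out. In *Mrpl48* itself, ND replicate 2 was the lowest library (226). Summed with its copy, *Mrpl48* went from a log2 fold change of 0.099 to -0.027, and *Mrps36* from 0.063 to 0.049.

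**Figure D4:**
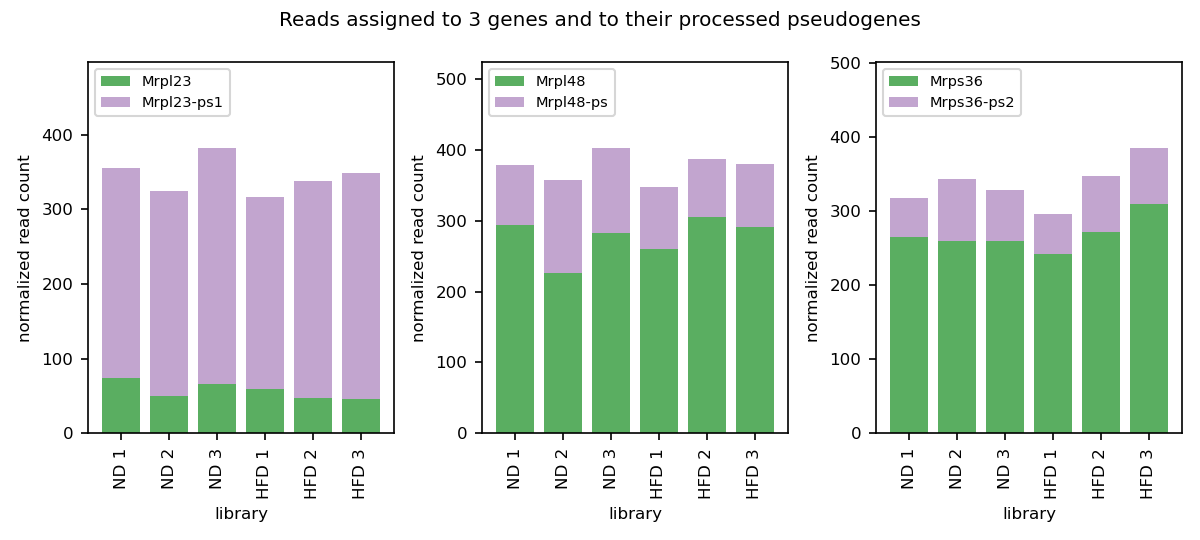
Normalized read counts of *Mrpl23*, *Mrpl48* and *Mrps36* (green) stacked with those of their processed copies (violet) in each library. The copy holds most of the *Mrpl23* pair (79.2% to 86.9%) and a minority of the *Mrpl48* and *Mrps36* pairs.

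Sharing of this kind was not limited to the named copies. Of the 81 members, 45 shared no 75-base stretch of their transcripts with another annotated gene, and 13 shared at least 10% of such stretches. The largest share among coding members was that of *Mrpl53*, with 78.8% in common with *Gm42688*, which overlaps it on the same strand and had a mean level of 204 beside 126 for *Mrpl53*. *Mrps34* shared 32.4% with its overlapping neighbour *Nme3*. Levels of these members are uncertain, and the share of stretches does not give the size of the error. *Mrpl23* shared 10.1% of its stretches, yet its copy took 79.2% to 86.9% of the pair's counts. Copies of *Mrpl22*, *Mrps18b*, *Mrps33* and *Mrps5* listed in the table under other names were summed with them, and the log2 fold changes were 0.17, 0.12, -0.064 and 0.13, against 0.18, 0.15, -0.017 and 0.11 without the copies. *Mrps18c* shared 9.56% of its stretches with *Gm43511* and *Gm15946*, which were not summed with it. Their mean levels were 58.2 and 49.5, beside 246 for *Mrps18c*.

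The genes are spread over the genome, with members on 17 chromosomes and at most 11 on any 1 of them, chromosome 11. A recurrent feature of their position was a neighbour transcribed in the opposite direction from nearby. Of the 78 coding members, 33 (42.3%) had the start of a coding gene on the other strand within 1000 bases of their own start, in a head-to-head arrangement, compared with 17.6% of the 10677 coding genes of the table. Some neighbours act in mitochondria as well. *Mrps12* faces *Sars2*, the mitochondrial seryl-tRNA synthetase, *Mrpl36* faces *Ndufs6* and *Mrpl47* faces *Ndufb5*, both encoding subunits of respiratory complex I, and *Mrpl43* faces *Twnk*. *Mrps11* and *Mrpl46*, of the small and the large subunit, face each other at chr7:78783119-78792989 and chr7:78775236-78783531. *Mrps11* counted 132 ± 13.4 in ND against 141 ± 7.06 in HFD, and *Mrpl46* 170 ± 25.9 and 162 ± 15.4 (SD, n = 3 libraries each), so the pair had log2 fold changes of 0.093 and -0.060 with limma adjusted p-values of 0.841 and 0.912.

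Promoter windows of RefSeq (build GRCm38.p6, from 250 bases before to 50 bases after the start of a gene) matched 69 of the 81 members by symbol. They were searched on both strands for 3 short motifs of factors known for promoters of mitochondrial genes, the NRF1 core CGCATGCG, the ETS core CCGGAAGT and the YY1 core AAGATGGCG, none of which contains another. At least 1 motif stood in a window of 26 of the 69 members (37.7%), compared with 17.3% of the 9021 genes of the table that have a window and 7.58% of all 27025 genes that do. NRF1 cores stood in windows of 10.1% of the members and 4.66% of the table's genes, ETS cores in 17.4% and 9.93%, and YY1 cores in 11.6% and 3.90%. By name, 8 of 26 Mrps genes (30.8%) and 18 of 43 Mrpl genes (41.9%) had a motif. The 250 bases before the start are shown for 3 members described above, *Mrpl22* with an NRF1 core (chr11:58171414-58171663, plus strand), *Mrps22* with an ETS core (chr9:98601680-98601929, minus strand) and *Mrps15* with none of the 3 (chr4:126046678-126046927, plus strand), with motif matches in capitals.
Mrpl22: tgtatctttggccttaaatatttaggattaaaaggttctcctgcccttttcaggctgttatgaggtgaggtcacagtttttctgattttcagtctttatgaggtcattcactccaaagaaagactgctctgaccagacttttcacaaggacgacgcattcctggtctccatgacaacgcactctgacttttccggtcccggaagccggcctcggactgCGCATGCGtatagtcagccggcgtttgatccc
Mrps22: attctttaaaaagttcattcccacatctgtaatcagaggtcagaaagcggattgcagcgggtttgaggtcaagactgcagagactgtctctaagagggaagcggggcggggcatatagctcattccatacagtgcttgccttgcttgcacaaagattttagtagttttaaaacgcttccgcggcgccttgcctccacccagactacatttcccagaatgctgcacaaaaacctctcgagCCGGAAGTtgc
Mrps15: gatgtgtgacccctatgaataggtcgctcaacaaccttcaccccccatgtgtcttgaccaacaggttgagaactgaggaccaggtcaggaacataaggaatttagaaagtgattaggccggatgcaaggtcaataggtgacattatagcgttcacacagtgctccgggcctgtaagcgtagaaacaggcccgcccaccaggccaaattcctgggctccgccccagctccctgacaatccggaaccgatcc
A match describes these letters only, and a window without a match says nothing of the factor. Members with a motif lay on both sides of 0. *Mrpl22* (NRF1) and *Mrps22* (ETS) had log2 fold changes of 0.18 and 0.17, while *Mrpl18* and *Mrpl43*, with ETS cores, had -0.15 and -0.12. Without a motif in the window, *Mrps15* had -0.28 and *Mrpl57* 0.21.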

How the data were processed

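RNA of 3 ND and 3 HFD hypoxia libraries was compared. The deposited table holds a signal, normalized read counts that the authors made with STAR and Partek on mm10, per the submitters' processing notes, whose versions and annotation are not given in the sources used here. Between 57.0% and 58.4% of values in a library were whole multiples of the value of 1 read (tolerance 0.02), so depth could be estimated but whole reads could not be recovered, and the count test planned for raw counts was not used. Columns marked NC were taken as ND, and 0 columns were left unmatched. Log2(value + 1) was fitted over all 13232 genes with limma 3.58.1 in R 4.3.3 (mean-variance trend, diet as the only term, two-sided), with Benjamini-Hochberg adjustment and a threshold of 0.05. Fold changes on this scale understate those of low genes. The procedure was tested on simulated data with planted changes larger than that of any member. That test does not speak to changes of the size seen among the members. Members and lists were chosen with earlier results of these data known. Members named are, per subunit, the 4 smallest p-values in each direction and the 3 highest and 3 lowest levels per kilobase, plus the Mrps18 paralogs, *Mrps30* and *Mrps36*. Other members named were chosen after their values were seen. Positions come from GENCODE M21 (GRCm38, the same assembly as mm10). Alternatives covered scaling, filter, pseudocount, weights, a replicate block, subunit by structure, summed copies and leaving out each library.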

Additional observations from a re-analysis of the deposited data

How the results depend on the processing

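The count of 0 genes past an adjusted limma p of 0.05 became 1133 with array weights, with 2 members (*Mrps15* and *Mrpl57*), and that fit called 8 members higher and 3 lower in HFD at an unadjusted p, where 13.7% and 13.9% of all genes were. Leaving out 1 library gave 0 to 233 genes (the most without ND replicate 3), 0 members at an adjusted p, 0 to 1 member higher and 1 to 2 lower unadjusted (all genes 2.66% to 9.01% and 2.63% to 8.44%), 4 to 17 members higher and 2 to 7 lower without overlap (all genes 9.51% to 17.7% and 9.33% to 18.2%), and a subunit difference of 0.019 to 0.089. Adding the replicate block (replicate number as a term) gave 31 genes, 0 of them members. The residual correlation of libraries with a shared number was -0.0086, -0.037 and -0.00069 for replicates 1 to 3, and the numbers were not taken as pairs. The replicate block, the fit without the trend and the changes of filter leave each member's log2 fold change as it is, so no sign could change there. The fit without a filter repeats the main fit, since no gene of the table had a mean under 1. With these included, of 434 values of 29 named members under alternatives, 411 had the same sign and call. Of the others, 2 passed the threshold that they had missed, and 21 changed sign, 17 of them when a library was left out. Such ranges were -0.033 to 0.011 for *Mrps35*, -0.034 to 0.021 for *Mrps18a*, -0.069 to 0.13 for *Mrpl47*, -0.038 to 0.089 for *Mrpl54*, -0.084 to 0.11 for *Mrpl33*, -0.00096 to 0.11 for *Mrpl35*, -0.017 to 0.17 for *Mrpl48*, -0.056 to 0.12 for *Mrps21* and -0.026 to 0.15 for *Mrps36*. *Mrpl33* was -0.0069 when scaled to the column total, which moves the median of all genes from -0.0034 to -0.016. *Mrps35* was 0.0020 after quantile normalization and *Mrpl47* -0.0062 with array weights. *Mrpl48* was -0.027 with copies summed, an alternative chosen after seeing the data. For the remaining changes the cause was not tested. Counts without overlap have no separate value for the block, the pseudocount, the trend, array weights or no filter, which leave the order of values as it is. With 3 libraries per diet, the median standard error of 0.10 on the log2 scale limits what could be shown.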

Other observations

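The cytosolic ribosome, which makes all imported mitochondrial ribosomal proteins, had 58 of its 78 protein genes lower and 20 higher in HFD, and the median log2 fold change was -0.059. At an unadjusted limma p under 0.05, 9 were lower and 0 higher, where 5.18% and 5.4% of all genes were, and the diets did not overlap for 12 lower and 3 higher, where 7.07% and 7.44% of all genes did not. No gene of the list passed an adjusted limma p of 0.05.

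The 13 mRNAs of the mitochondrial genome, the templates of the mitochondrial ribosome, had a median SD of log2 values between libraries of 0.28, where it was 0.12 over all genes. Their mean centred log2 value was 0.041, 0.34 and -0.20 in ND replicates 1 to 3, against -0.31, -0.12 and 0.25 in HFD replicates 1 to 3, so the diets overlapped widely. Of them 9 were lower and 4 higher in HFD, the median being -0.14 on the log2 scale and the lowest -0.54. At an unadjusted limma p under 0.05, 2 were lower and 0 higher, where 5.18% and 5.4% of all genes were. The diets did not overlap for 1 lower, *mt-Nd6*, and 0 higher, where 7.07% and 7.44% of all genes did not. *mt-Nd6*, which encodes a subunit of complex I, was 3448 ± 218 in ND against 2919 ± 149 in HFD (SD, n = 3 libraries each), a log2 fold change of -0.24 (limma adjusted p 0.295). The 6 genes of mitochondrial transcription had 4 higher and 2 lower, with a median log2 fold change of 0.061. The lowest was *Tfam*, the packaging and transcription factor of mitochondrial DNA, at -0.11 (limma adjusted p 0.741). The highest was *Mterf1b*, at 0.42 (limma adjusted p 0.694), with low means of 27.5 in ND and 36.7 in HFD.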
